A study of Homo sapiens with 6 samples.

Results

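The leukocyte integrin chains described here are 10 genes, 3 for beta chains (ITGB2, ITGB7 and ITGB1) and 7 for alpha chains (ITGAL, ITGAM, ITGAX, ITGAE, ITGA4, ITGA5 and ITGAV). They were chosen by symbol and found through their Ensembl identifiers, and all 10 were among the 18798 genes with counts. RNA was sequenced from 6 libraries of U937, an established human line of monocytic origin, cultured with serum and selected with geneticin. The 3 ΔNSPs libraries came from independent clones that had been transduced to deplete CTSG, ELANE and PRTN3 together, the genes of cathepsin G, neutrophil elastase and proteinase 3. The 3 Control libraries came from separate lines transduced with control plasmids. Each library thus stands for 1 clone or 1 line, and the labels name no other treatment.

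Integrins are receptors made of an alpha and a beta chain, and a chain reaches the cell surface only with a partner. Talin and kindlin bind the tail of the beta chain and switch the receptor to a state that grips its ligand, and kinases carry the signal back into the cell once it is bound. On myeloid cells ITGB2 (CD18) pairs with ITGAL (CD11a), ITGAM (CD11b) or ITGAX (CD11c) in receptors for ICAMs and complement fragments, while ITGB1 pairs with ITGA4 or ITGA5 in receptors for VCAM1 and fibronectin. ITGB7 pairs with ITGA4 in the receptor for the gut addressin MAdCAM-1 and with ITGAE (CD103) in the receptor for E-cadherin.

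Library totals ran from 12184903 to 13782854 counts in the ΔNSPs clones and from 11476619 to 13543076 in the Control lines. A floor of 3 counts lay at 0.214 to 0.260 CPM (counts scaled to the library total after TMM normalization), which covers counting error only. CTSG was at 136, 110 and 45.2 CPM in clones 1, 2 and 3, against 1895, 2474 and 2752 CPM in Control lines 1, 2 and 3 (edgeR adjusted p = 0.0215). Leaving out clone 2, Control line 2 or Control line 3 ended that call (edgeR adjusted p = 0.0932, 0.232 and 0.217). ELANE was at 41.8, 1.89 and 27.8 CPM in the clones, against 1084, 969.6 and 1325 CPM in the Control lines, and PRTN3 at 0.855, 63.2 and 55.3 CPM in the clones, against 539, 147 and 244 CPM in the Control lines. Every clone thus lay below every Control line for all 3 targets, though ELANE and PRTN3 did not pass in edgeR (adjusted p = 0.145 and 0.217). In DESeq2 ELANE passed (adjusted p = 4.36e-05) and PRTN3 did not (adjusted p = 0.21), and without clone 1 both passed in edgeR (adjusted p = 0.018 and 0.0391). ΔNSPs clone 1 lay nearer to the Control lines than to the other clones. Its root mean square difference over the 14797 tested genes was 0.74 and 0.71 log2 units to clones 2 and 3, but 0.48 to 0.53 to the Control lines. Clones 2 and 3 also differed, by 0.65 from each other and by 0.63 to 0.79 from the Control lines. Each was about as near to Control line 1 (0.644 and 0.635) as to the other clone (0.647), and farther from Control lines 2 and 3. The summed level of 12 monocytic markers was 825, 1342 and 1203 CPM in clones 1, 2 and 3, against 979 to 1016 CPM in the Control lines. Among them CD14 stayed at or under 0.337 CPM in each library. The markers did not move together. Clones 2 and 3 lay above clone 1 and every Control line for LYZ, CSF1R, SPI1, TYROBP, AIF1 and FCER1G. They did not for CD4, CD33, MNDA, CD68, FCGR1A and CD14. AIF1 was at 159, 174 and 240 CPM in the clones, against 152, 106 and 108 CPM in the Control lines. It passed in DESeq2 (adjusted p = 0.0467) and not in edgeR (adjusted p = 0.189). LYZ was at 95.5, 229 and 164 CPM in the clones, against 109 to 116 CPM in the Control lines. CD4 was at 125, 356 and 253 CPM, against 257 to 291 CPM. CD33 was at 76.3, 76.2 and 59.3 CPM, against 72.1 to 72.3 CPM, and MNDA at 209, 263 and 258 CPM, against 231 to 292 CPM. Of 8 markers of T and NK cells, 2 had counts and summed to at most 5.22 CPM. Of 4 markers of B cells, 3 had counts and their sum ran from 24.2 to 33.5 CPM. HBB made up most of the erythroid sum of 74.6 to 134 CPM (2 of 6 markers with counts). The epithelial sum was at most 1.81 CPM (2 of 4 markers). None of the 4 endothelial markers was found among the genes with counts.

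The CD18 receptor genes ITGB2, ITGAL, ITGAM and ITGAX were higher in clones 2 and 3 than in clone 1 and the Control lines. ITGB2 (ENSG00000160255), the shared beta chain, was at 414, 863 and 1041 CPM in ΔNSPs clones 1, 2 and 3, against 489, 557 and 578 CPM in Control lines 1, 2 and 3. Clone 1 lay below all Control lines and the other clones above them, so the groups overlapped. ITGAL (ENSG00000005844), the alpha chain of the lymphocyte function antigen that binds ICAM1, was at 37.4, 109 and 102 CPM in the clones, against 42.6, 41.6 and 49.0 CPM in the Control lines. As for ITGB2, clone 1 was the lowest of all 6 libraries and the other clones were the highest.

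ITGAM (ENSG00000169896), whose product takes up particles coated with complement, was expressed at a low level. It was at 5.13, 11.7 and 8.59 CPM in the clones, against 2.13, 3.98 and 5.80 CPM in the Control lines. Clones 2 and 3 were the highest 2 libraries and clone 1 lay within the Control range. ITGAX (ENSG00000140678), a marker of dendritic cells and macrophages, was at 1.57, 6.89 and 7.33 CPM in the clones, against 2.13, 4.56 and 2.51 CPM in the Control lines. Clone 1 held the lowest level, from 22 counts. ITGAM and ITGAX lie side by side on chromosome 16 with ITGAD, a close paralog with 0, 9 and 1 counts in the clones and 0 in each Control line, so reads could be split among these genes.

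**Figure D1:**
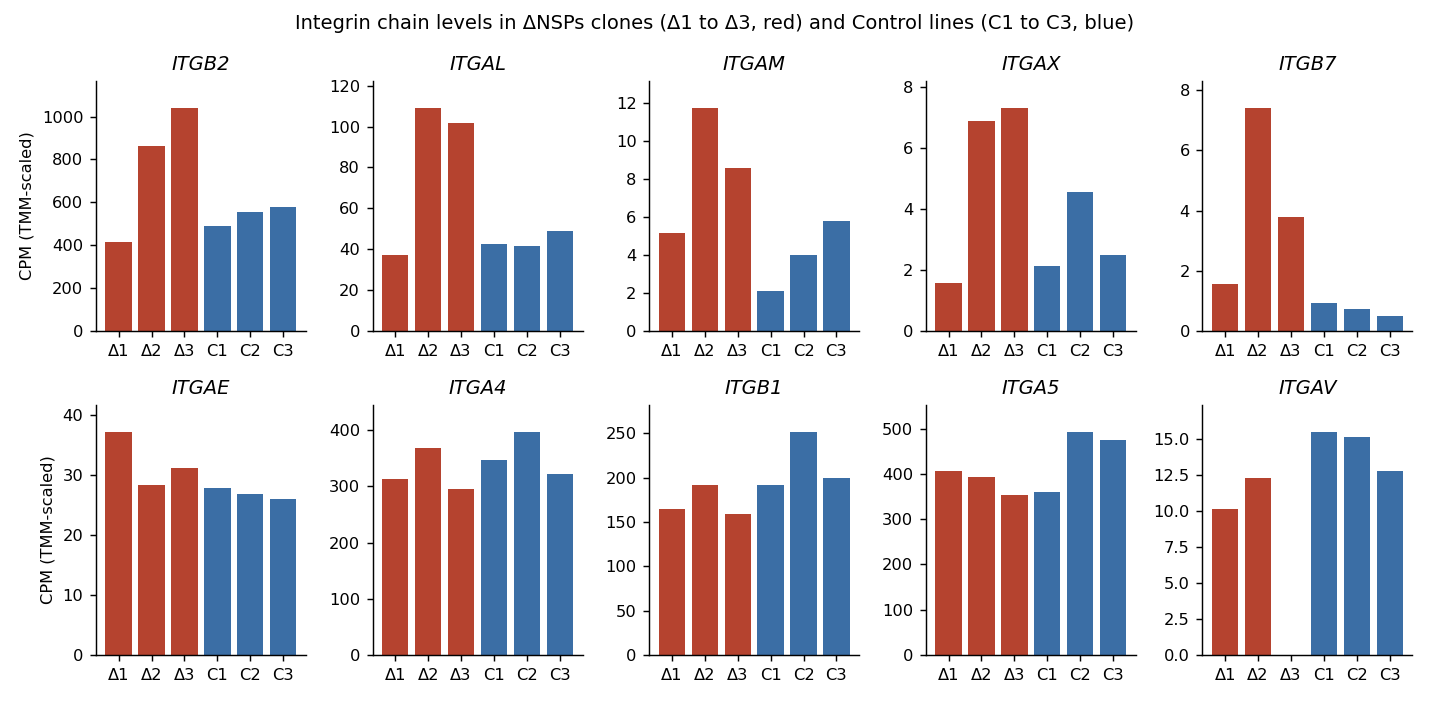
Bars give the TMM-scaled CPM of each integrin gene (vertical axes from 0, a scale for each gene) in ΔNSPs clones 1 to 3 (red) and Control lines 1 to 3 (blue). ITGB2, ITGAL, ITGAM, ITGAX and ITGB7 are highest in clones 2 and 3, and ITGAV is at 0 in clone 3.

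Of the 10 integrin genes, 5 had clones 2 and 3 both above clone 1 and every Control line, namely the 4 CD18 receptor genes and ITGB7; among all tested genes 16.6% had that order, which was noticed in these data. In the comparison of all clones with all Control lines, 0 of the 10 passed an adjusted p of 0.05 in edgeR's quasi-likelihood test, in which 0.0203% of 14797 genes passed (0.00676% as higher). In limma voom 0 passed too. Before adjustment, 3 lay under 0.05 as higher (ITGAL, ITGAM and ITGB7) and 1 as lower (ITGB1) in edgeR, where 17.8% of all tested genes did so, 9.23% as higher and 8.6% as lower. The groups did not overlap for 3 of the 10 genes (ITGB7 and ITGAE higher, ITGAV lower), against 23.9% of all tested genes. The median log2 fold change was 0.39 over the 10 genes and 0.0023 over all tested genes.

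ITGB7 was the DESeq2 call among the 10, and DESeq2 called 3.98% of the 12944 genes to which it gave an adjusted p (1.91% as higher). For the CD18 genes the log2 fold changes in edgeR were 0.51 for ITGB2 (SE 0.29), 0.90 for ITGAL (SE 0.35), 1.09 for ITGAM (SE 0.42) and 0.76 for ITGAX (SE 0.56), and the adjusted p of the 4 ran from 0.241 to 0.494 in edgeR. Without clone 1, ITGB2, ITGAL and ITGB7 passed as higher (edgeR adjusted p = 0.0209, 0.00403 and 0.018). In that comparison of the other clones with the Control lines, 6.17% of 15050 genes passed, and 3.04% passed as higher. On the log2 scale ITGB2 then differed by 0.81 (SE 0.13) and ITGAL by 1.24 (SE 0.11). ITGAM and ITGAX had 1.35 (SE 0.38) and 1.19 (SE 0.35) and did not pass (edgeR adjusted p = 0.0759 and 0.0815). Clone 1 is the clone that departs from the others in the order noticed in these data. The p values without it are therefore no independent evidence of that order. Without clone 2 or without clone 3, 0 of the 10 passed in edgeR. The adjusted p was then 0.578 and 0.718 for ITGB2, and 0.445 and 0.442 for ITGAL. In RNA from whole cultures, a larger share of cells with a transcript and more transcript per cell cannot be told apart. Clones 2 and 3 also had the highest sums of monocytic markers, though single markers disagreed, and the part of that in these values was not tested.

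**Figure D2:**
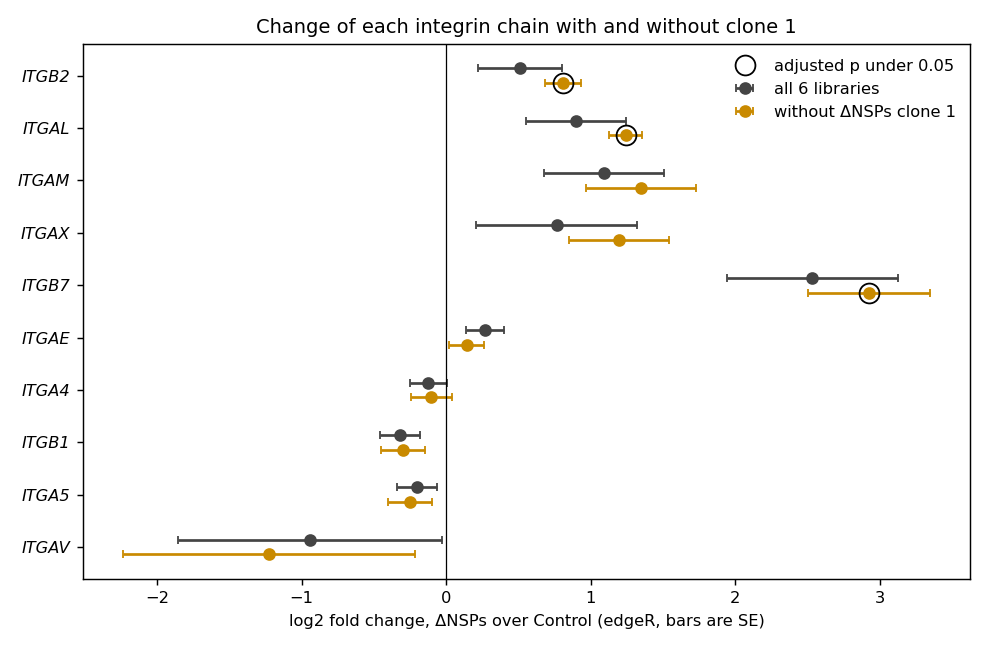
Points give the edgeR log2 fold change of ΔNSPs over Control (horizontal axis, bars are SE) for each integrin gene, with all 6 libraries (grey) and without ΔNSPs clone 1 (yellow); rings mark an adjusted p under 0.05. No gene is ringed with all 6 libraries, and ITGB2, ITGAL and ITGB7 are ringed without clone 1.

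ITGB2 lies near the end of chromosome 21 (44885953 to 44931989, minus strand, GRCh38) among genes that were also higher in clones 2 and 3. The 33 other genes within 2 Mb whose mean reached 8 CPM were set against their Control averages on the log2 scale. Their medians were -0.049 in clone 1, 0.42 in clone 2 and 0.50 in clone 3, where ITGB2 itself had -0.39, 0.67 and 0.94. A shift of this stretch of the chromosome moved with ITGB2, and its part in the ITGB2 level was not tested. ITGAL (chromosome 16, 30472658 to 30523185, plus strand) had no such surroundings. The 82 genes near it had medians of 0.070, 0.12 and 0.073 in the clones, against -0.25, 1.29 and 1.19 for ITGAL. Around ITGAM (31259967 to 31332892) and ITGAX (31355134 to 31382997), on the same chromosome and strand, the 68 neighbours had medians of 0.078, 0.13 and 0.086.

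**Figure D3:**
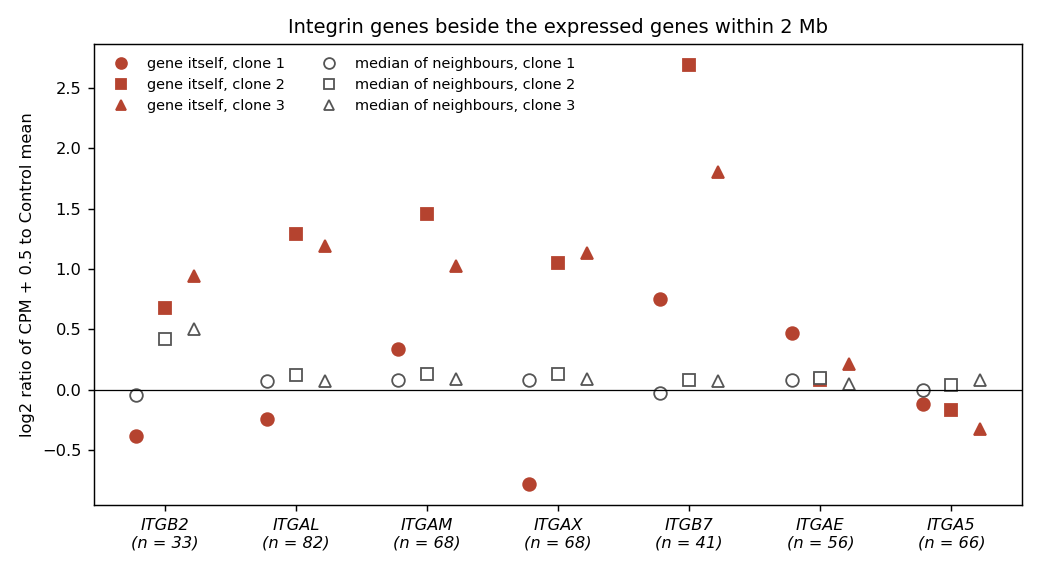
The vertical axis is the log2 ratio of CPM + 0.5 in each ΔNSPs clone to the Control mean, for the integrin gene itself (filled) and for the median of its expressed neighbours within 2 Mb (open; their number stands under each gene). Genes with at least 20 neighbours are drawn, and the neighbours of ITGB2 lie above 0.4 in clones 2 and 3 while those of the other genes lie between -0.03 and 0.13.

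Exons annotated on the opposite strand touch several of these genes, and the strand setting of the counting is not given in the sources used here. ITGB2-AS1 shares 303 bases with ITGB2 exons and had 0.784, 1.29 and 3.45 CPM in the clones, against 0.255 to 0.866 CPM in the Control lines. The antisense RNA AC116348.3 shares 415 bases with ITGAL exons and had 4.35, 13.2 and 10.9 CPM in the clones, against 4.13 to 6.04 CPM in the Control lines. Without strand, reads of these RNAs and of their partners cannot be told apart.

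ITGB7 had the largest log2 fold change of the 10 genes, from few counts. ITGB7 (ENSG00000139626, chromosome 12, 53191318 to 53207307, minus strand) was at 1.57, 7.42 and 3.79 CPM in ΔNSPs clones 1, 2 and 3, against 0.936, 0.724 and 0.520 CPM in Control lines 1, 2 and 3. These levels rest on 22, 98 and 45 counts in the clones, against 11, 10 and 6 counts in the Control lines. Each clone lay above each Control line, as in 12.2% of all tested genes; clone 2 was the highest and clone 1 the lowest of the clones. The means were 4.26 ± 2.95 CPM in ΔNSPs and 0.727 ± 0.208 CPM in Control (SD, n = 3 each), 5.86 times the Control mean. The log2 fold change was 2.53 (SE 0.59), which passed in DESeq2 (adjusted p = 0.00442) and not in edgeR (adjusted p = 0.171). Without clone 1 it was 2.92 (SE 0.42) and passed in edgeR, and without clone 2 it was 1.86 (edgeR adjusted p = 0.298).

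ZNF740, a zinc finger gene on the other strand, shares 1886 of the 4481 exon bases of ITGB7, or 42.1%. It was at 30.4, 35.1 and 35.1 CPM in the clones, against 31.7 to 32.1 CPM in the Control lines (edgeR: log2 fold change 0.073, SE 0.11, adjusted p = 0.758). ITGB7 counts are uncertain for that reason, since reads in the shared bases could be given to either gene or to none. The 41 expressed neighbours of ITGB7 had median log2 ratios of -0.025, 0.080 and 0.071 in the clones.

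The partners of ITGB7 were more abundant than ITGB7. ITGAE (ENSG00000083457, chromosome 17), which holds lymphocytes in epithelia, was at 37.2, 28.3 and 31.2 CPM in the clones, against 27.7, 26.7 and 26.0 CPM in the Control lines. The clones were again above the Control lines, here with clone 1 highest (edgeR: log2 fold change 0.27, SE 0.13, adjusted p = 0.33). HASPIN, which lies inside ITGAE on the other strand, shares 427 exon bases with it and was at 31.1 to 35.5 CPM in the clones, against 27.4 to 31.2 CPM in the Control lines. ITGA4 (ENSG00000115232, chromosome 2), the alpha chain shared by ITGB7 and ITGB1, was at 314, 369 and 296 CPM in the clones, against 347, 398 and 322 CPM in the Control lines. Its groups overlapped (edgeR: log2 fold change -0.12, SE 0.13, adjusted p = 0.631).

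RefSeq promoter windows of 300 bases, from 250 bases before to 50 bases after an annotated gene start, were matched for 7 of the 10 genes and not for ITGB2, ITGAL and ITGAX. The windows of ITGB7 and ITGAM are shown because both genes were higher in clones 2 and 3, beside those of ITGA4 and ITGA5, which were not; the matches in the windows of ITGB1, ITGAE and ITGAV are counted after them. Capitals mark GAGGAA, a core bound by PU.1 and other ETS factors (read as TTCCTC on the other strand). They also mark TGTGGT, a core bound by RUNX factors (read as ACCACA on the other strand), and GGGCGG, the GC box (read as CCGCCC on the other strand). The windows are taken from GRCh38.p14 at chr12:53207202-53207501 (minus strand) for ITGB7, chr16:31259725-31260024 (plus strand) for ITGAM, chr2:181457136-181457435 (plus strand) for ITGA4 and chr12:54419217-54419516 (minus strand) for ITGA5.
ITGB7: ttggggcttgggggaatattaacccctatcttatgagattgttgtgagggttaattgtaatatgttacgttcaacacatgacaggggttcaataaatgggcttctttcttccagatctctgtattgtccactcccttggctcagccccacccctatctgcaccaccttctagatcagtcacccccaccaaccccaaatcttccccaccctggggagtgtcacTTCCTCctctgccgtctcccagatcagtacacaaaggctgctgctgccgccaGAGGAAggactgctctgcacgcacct
ITGAM: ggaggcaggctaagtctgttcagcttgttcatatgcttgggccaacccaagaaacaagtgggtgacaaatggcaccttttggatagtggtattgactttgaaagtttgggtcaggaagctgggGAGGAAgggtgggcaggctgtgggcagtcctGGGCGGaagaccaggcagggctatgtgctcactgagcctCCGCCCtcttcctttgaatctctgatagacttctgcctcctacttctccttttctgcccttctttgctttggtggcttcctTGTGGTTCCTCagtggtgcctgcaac
ITGA4: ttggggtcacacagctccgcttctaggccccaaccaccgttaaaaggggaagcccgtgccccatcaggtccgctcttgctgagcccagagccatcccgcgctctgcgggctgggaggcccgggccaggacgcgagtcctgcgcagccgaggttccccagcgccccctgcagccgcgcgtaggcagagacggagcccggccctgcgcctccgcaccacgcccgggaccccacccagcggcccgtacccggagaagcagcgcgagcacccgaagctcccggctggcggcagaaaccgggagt
ITGA5: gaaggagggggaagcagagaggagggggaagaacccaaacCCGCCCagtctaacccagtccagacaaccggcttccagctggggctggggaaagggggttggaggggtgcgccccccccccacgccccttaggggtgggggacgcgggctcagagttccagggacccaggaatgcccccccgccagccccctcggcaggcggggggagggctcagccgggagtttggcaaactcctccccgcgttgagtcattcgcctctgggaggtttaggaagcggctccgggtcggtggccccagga

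The ITGB7 window held GAGGAA 2 times and neither of the other motifs. In the ITGAM window GAGGAA stood 2 times, GGGCGG 2 times and TGTGGT once, the last overlapping a GAGGAA on the other strand by a single base. The ITGA5 window held GGGCGG once, and the ITGA4 window held none of the 3. ITGB1, ITGAE and ITGAV, which were not higher in clones 2 and 3 either, each held GAGGAA once, and ITGB1 also GGGCGG 3 times; the further windows of ITGB1 and ITGAV held no match. GAGGAA thus stood in windows of both kinds of gene. Of all 35116 promoter windows, 27.9% held GAGGAA, 13.1% TGTGGT and 45.0% GGGCGG, so these matches are common. SPI1, the gene of PU.1, was at 127, 138 and 153 CPM in the clones, against 126, 115 and 125 CPM in the Control lines (edgeR: log2 fold change 0.20, SE 0.11, adjusted p = 0.366). RUNX1 was at 112, 193 and 165 CPM in the clones, against 117, 87.8 and 88.4 CPM in the Control lines. Its log2 fold change of 0.68 (SE 0.21) passed in DESeq2 (adjusted p = 0.0427) and not in edgeR (adjusted p = 0.189). RUNX1 (34787801 to 36004667) lies on chromosome 21, as ITGB2 does. So does GABPA (25734570 to 25772460), another transcription factor gene. GABPA was at 89.7, 123 and 136 CPM in the clones, against 106, 89.8 and 79.0 CPM in the Control lines. It did not pass (adjusted p = 0.34 in edgeR and 0.33 in DESeq2). Both genes lie outside the 2 Mb around ITGB2, and no summary of genes over the whole chromosome was made. The part of this shared chromosome in the RUNX1 and GABPA levels was therefore not tested.

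The fibronectin and VCAM1 receptor chains kept to a narrow range. ITGB1 (ENSG00000150093, chromosome 10), the beta chain of most receptors for matrix, was at 164, 192 and 159 CPM in the clones, against 192, 252 and 200 CPM in the Control lines. Clones 1 and 3 lay below all Control lines and clone 2 lay level with the lowest of them (edgeR: log2 fold change -0.32, SE 0.14, adjusted p = 0.276). ITGA5 (ENSG00000161638, chromosome 12), the alpha chain of the fibronectin receptor, was at 406, 394 and 353 CPM in the clones, against 360, 493 and 474 CPM in the Control lines. Control line 1 lay among the clones (edgeR: log2 fold change -0.20, SE 0.14, adjusted p = 0.46). Across all alternatives run, the log2 fold change stayed between -0.41 and -0.19 for ITGB1 and between -0.33 and -0.12 for ITGA5.

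ITGAV (ENSG00000138448, chromosome 2, 186590065 to 186680901, plus strand), the alpha chain of receptors for vitronectin and latent TGF-β, had no counts in clone 3. It was at 10.1, 12.3 and 0 CPM in ΔNSPs clones 1, 2 and 3, against 15.5, 15.1 and 12.7 CPM in Control lines 1, 2 and 3, from 142, 162 and 0 counts in the clones and 182, 209 and 147 counts in the Control lines. Every clone lay below every Control line, as in 11.7% of tested genes. At a floor of 3 counts in that library (0.253 CPM), clone 3 was at least 57.2-fold lower than the Control mean. edgeR fitted -0.94 on the log2 scale (SE 0.91, adjusted p = 0.614), and -0.37 without clone 3 (edgeR adjusted p = 0.433). Over all alternatives the value ran from -2.88 in limma voom to -0.37, and none passed.

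ITGAV was 1 of 4 genes with 0 counts in clone 3 and at least 100 counts in each of the other libraries. The others, found after the values were seen, were CD79B, PKP4 and SEPT10, and PKP4 and SEPT10 also lie on chromosome 2. Genes beside ITGAV were counted in clone 3: ZC3H15, which ends before ITGAV begins, was at 263, 277 and 200 CPM in the clones, against 253, 234 and 211 CPM in the Control lines. The antisense RNA AC017101.1, which overlaps ITGAV, had 3, 9 and 0 counts in the clones, against 10, 17 and 4 counts in the Control lines. The 5 stromal markers (COL1A1, COL1A2, COL3A1, DCN and PDGFRB) summed to 6.91, 10.3 and 0.758 CPM in the clones, against 6.67 to 6.89 CPM in the Control lines, and COL1A2 and COL3A1 were at 0 in clone 3. The ligand genes FN1 and THBS1 were lowest in clone 3 too, while C3, F11R, TGFB1 and ICAM3 were not. FN1 was at 5.92, 8.10 and 0.590 CPM in the clones, against 5.45, 6.38 and 4.33 CPM in the Control lines. THBS1 was at 2.99, 2.95 and 0.168 CPM, against 2.21, 3.40 and 2.86 CPM. The stromal markers and these 2 ligand genes were thus low in the same clone as ITGAV, and their part in its level was not tested. COL3A1 also lies on chromosome 2 (188974320 to 189012746), in the region of ITGAV. It had 12, 20 and 0 counts in the clones, against 11, 8 and 8 counts in the Control lines. COL5A2, which begins after COL3A1 ends, had 16, 15 and 13 counts in the clones, against 17, 18 and 9 counts in the Control lines. WDR75 and SLC40A1, which lie beyond COL5A2, had 1848 and 211 counts in clone 3. A loss of this region in clone 3 was not tested. Of the beta chains that join ITGAV, ITGB5 was at 1.71, 2.80 and 1.85 CPM in the clones, against 0.511, 1.45 and 1.47 CPM in the Control lines. ITGB3, ITGB6 and ITGB8 were not found among the genes with counts.

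Per kilobase of annotated exon, which allows levels of different genes to be compared, ITGB2 led in both groups. It stood at 114 ± 47.6 CPM per kilobase in ΔNSPs and 79.6 ± 6.82 in Control (SD, n = 3 each), place 402 among all protein-coding genes over the 6 libraries. ITGA5 (50.7 ± 3.66 in ΔNSPs and 58.4 ± 9.50 in Control), ITGA4 (41.3 ± 4.83 and 45.0 ± 4.88) and ITGB1 (28.6 ± 2.94 and 35.7 ± 5.44) followed. The ranges of ITGA5 and ITGA4 overlapped in both groups, and those of ITGA4 and ITGB1 in the Control lines. ITGAL came next at 12.8 ± 6.10 CPM per kilobase in ΔNSPs and 6.86 ± 0.626 in Control, clear of ITGAE at 4.84 ± 0.683 and 4.03 ± 0.132. The other genes averaged under 2 CPM per kilobase in either group. In the Control lines ITGAV led these, ITGAM and ITGAX overlapped and ITGB7 was last, while in the clones the ranges of the 4 overlapped from each to the next.

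Among the CD18 partners, ITGAL supplied 83.7% to 86.1% of the summed alpha chain level per kilobase in the clones and 82.7% to 90.7% in the Control lines. ITGB2 made up 68.7%, 79.1% and 84.9% of the summed level of the 3 beta chains in clones 1, 2 and 3, against 69.1%, 66.1% and 71.8% in Control lines 1, 2 and 3. ITGB7 was at most 1.03% of that sum, in clone 2.

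Alpha chains were next set beside their beta partners within each library as the log2 ratio of their levels per kilobase, a measure that does not depend on library scaling. The sum of ITGAL, ITGAM and ITGAX over ITGB2 was -3.14, -2.67 and -3.07 in clones 1, 2 and 3, against -3.31, -3.40 and -3.25 in Control lines 1, 2 and 3. All clones lay above all Control lines, by 0.36 on average, clone 1 included. In an exact two-sided permutation test the p was 0.1, the smallest that 3 against 3 libraries can give, and it was 0.133 adjusted over the 4 ratios tested. ITGB7 over ITGB1, the beta chains that share ITGA4, had log2 ratios of -6.29, -4.27 and -4.97 in the clones, against -7.25, -8.02 and -8.16 in the Control lines. The difference was 2.64, with the same exact permutation p of 0.1.

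The sum of ITGA4 and ITGAE over ITGB7 was lower in each clone than in each Control line, at 7.02, 4.95 and 5.64 on the log2 scale in clones 1, 2 and 3, against 7.85, 8.39 and 8.59 in Control lines 1, 2 and 3 (exact permutation p = 0.1). Even in clone 2 the alpha chains were 30.8 times ITGB7. Both ratios that use ITGB7 largely repeat its own level, which was already higher in each clone (log2 fold change 2.53). The log2 fold changes of ITGA4, ITGAE and ITGB1 were only -0.12, 0.27 and -0.32. The order of the groups in these ratios is therefore no separate evidence. The exon bases shared with ZNF740 are part of the ITGB7 length. Its level per kilobase and every share or ratio that uses it are uncertain for that reason. The sum of ITGA4, ITGA5 and ITGAV over ITGB1 averaged 1.70 ± 0.0764 in ΔNSPs and 1.56 ± 0.0874 in Control (SD, n = 3 each) and overlapped between the groups (exact permutation p = 0.2). ITGA4 enters both sums, and ITGAV also joins other beta chains.

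**Figure D4:**
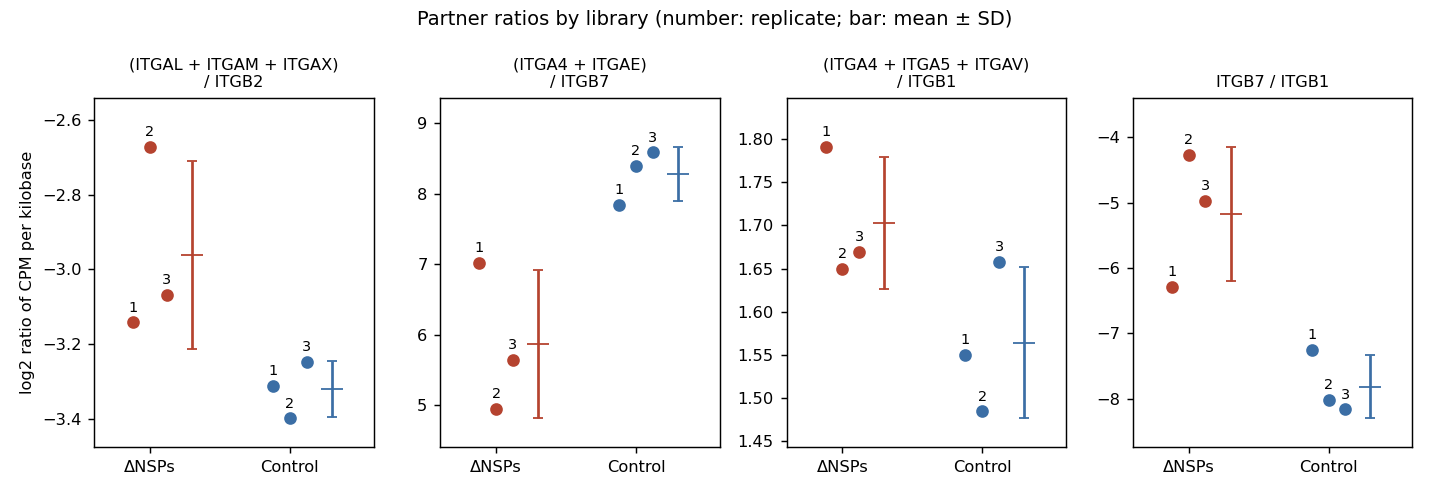
Each panel gives a log2 ratio of CPM per kilobase (vertical axes differ) in ΔNSPs clones (red) and Control lines (blue); points carry the replicate number and bars show mean ± SD. The groups do not overlap for ITGB2 partners, ITGB7 partners and ITGB7 over ITGB1, and they overlap for ITGB1 partners. Both panels that use ITGB7 largely repeat its own level.

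Genes whose level followed ITGB2 or ITGB7 most closely were found among protein-coding genes averaging 2 CPM or more, by the root mean square difference of log2 CPM centred on the mean of the 6 libraries. GRIP2, PREX1 and PTAFR were nearest to ITGB2 of 10753 genes, at 0.12, 0.12 and 0.13 log2 units, and ITGAL was at 0.23. PREX1 was at 68.6, 144 and 151 CPM in the clones, against 91.1, 104 and 96.9 CPM in the Control lines. F2RL3, LGALS9B and CEACAM6 were nearest to ITGB7, at 0.26, 0.39 and 0.43 log2 units, and the nearest integrin gene was ITGAL at 0.77. LGALS9B was at 3.56, 10.3 and 11.5 CPM in the clones, against 3.15, 1.52 and 1.47 CPM in the Control lines, and it has close paralogs that may share its reads.

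Genes that work with integrins were read from the same fit in 7 lists. Of their 113 genes, 94 had counts and 83 were tested. In edgeR 0 of the 83 passed with all libraries, and 0 in limma voom. Before adjustment 13 lay under 0.05 in edgeR as higher and 7 as lower, against 9.23% and 8.6% of all tested genes. DESeq2 called 4 as higher and 3 as lower, where it called 3.98% of all its genes. Without clone 1, edgeR called 14 as higher and 3 as lower, where it called 6.17% of all genes, 3.04% as higher. The median log2 fold change over them was 0.023. For 31 of the 83, clones 2 and 3 lay above clone 1 and every Control line, where 16.6% of all tested genes had that order. They were 10 signalling genes, 5 other adhesion genes, 5 transcription factors, 4 ligands, 3 activators, 3 other integrin chains and 1 inhibitor.

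Of the signalling genes downstream of bound integrins (24 tested), DESeq2 called FGR, FCER1G and ZYX as higher and PARVB as lower, and the median was 0.022. FGR, a Src family kinase of myeloid cells, was at 32.5, 78.3 and 85.1 CPM in the clones, against 21.6, 30.5 and 33.0 CPM in the Control lines. FCER1G, an adapter that couples CD18 receptors to the kinase SYK and 1 of the 12 monocytic markers, was at 21.0, 62.4 and 54.5 CPM in the clones, against 21.7, 17.9 and 19.8 CPM in the Control lines. For both genes clone 1 lay within the Control range and clones 2 and 3 well above it, with log2 fold changes of 1.20 (SE 0.34) and 1.21 (SE 0.35) in edgeR. ZYX, the adhesion site protein zyxin, had 0.76 (SE 0.23), and PARVB, a parvin that binds integrin-linked kinase, had -0.54 (SE 0.11) with all clones below all Control lines. In edgeR the adjusted p of the 4 ran from 0.16 to 0.189.

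Activators of integrins (16 tested) had a median of 0.029, and 0 were called in edgeR or DESeq2. FERMT3, the kindlin of blood cells, was at 268, 298 and 261 CPM in the clones, against 239, 242 and 254 CPM in the Control lines, with edgeR giving 0.17 on the log2 scale (SE 0.096). Inhibitors (7 tested) had a median of 0.023 with 0 calls in either tool. FLNA, filamin A, which competes with talin for the beta tail, averaged 841 ± 137 CPM in ΔNSPs and 828 ± 43.1 CPM in Control (SD, n = 3 each). Without clone 1, edgeR called 2 activators and 1 inhibitor as higher.

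Ligands (15 tested) had a median of -0.24, and DESeq2 called C3 and F11R as lower. C3, whose fragment is bound by ITGAM with ITGB2, was at 0.499, 0.984 and 0.926 CPM in the clones, against 0.426, 19.2 and 20.1 CPM in the Control lines. Control line 1 was the lowest of all libraries, and the high values were those of Control lines 2 and 3. F11R, a junction protein that binds ITGAL with ITGB2, was at 28.3, 22.5 and 31.0 CPM in the clones, against 33.7, 43.8 and 47.5 CPM in the Control lines (DESeq2 adjusted p = 0.0489). TGFB1, the ligand gene with the highest mean, was at 428, 554 and 555 CPM in the clones, against 407, 404 and 425 CPM in the Control lines (edgeR adjusted p = 0.247). Without clone 1, edgeR called TGFB1 and ICAM3 as higher (adjusted p = 0.0455 and 0.0254) and no ligand as lower. ICAM3, another ligand of ITGAL with ITGB2, was at 68.0, 171 and 285 CPM in the clones, against 98.5, 56.8 and 76.5 CPM in the Control lines. With all libraries it did not pass (adjusted p = 0.243 in edgeR and 0.271 in DESeq2). ICAM2 was at 14.5, 11.4 and 9.69 CPM in the clones, against 17.0, 17.4 and 14.4 CPM in the Control lines. ICAM1 was at 24.8, 37.7 and 29.6 CPM, against 22.2, 45.4 and 32.7 CPM. Clones 2 and 3 were not the highest libraries for ICAM1, ICAM2, ICAM4 or ICAM5.

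The other integrin chains (6 tested of 16) had a median of 0.11 and 0 calls in edgeR or DESeq2. ITGA6, a laminin receptor chain, was at 208, 223 and 221 CPM in the clones, against 224, 282 and 265 CPM in the Control lines. Other adhesion genes (9 tested) had a median of 0.18 and 0 calls in those tools. CD99, with the highest mean over the 6 libraries, was at 270, 118 and 117 CPM in the clones, against 215, 291 and 354 CPM in the Control lines, with clones 2 and 3 lowest. Its log2 fold change was -0.77 (edgeR adjusted p = 0.287), and -1.29 without clone 1 (edgeR adjusted p = 0.0207). In that comparison edgeR called 2 other adhesion genes as higher and 1, CD99, as lower. Transcription factors known for leukocyte integrin genes (6 tested) had a median of 0.21, with RUNX1 as the DESeq2 call. CBFB, the partner of RUNX1, was at 161, 194 and 165 CPM in the clones, against 144, 163 and 138 CPM in the Control lines.

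**Figure D5:**
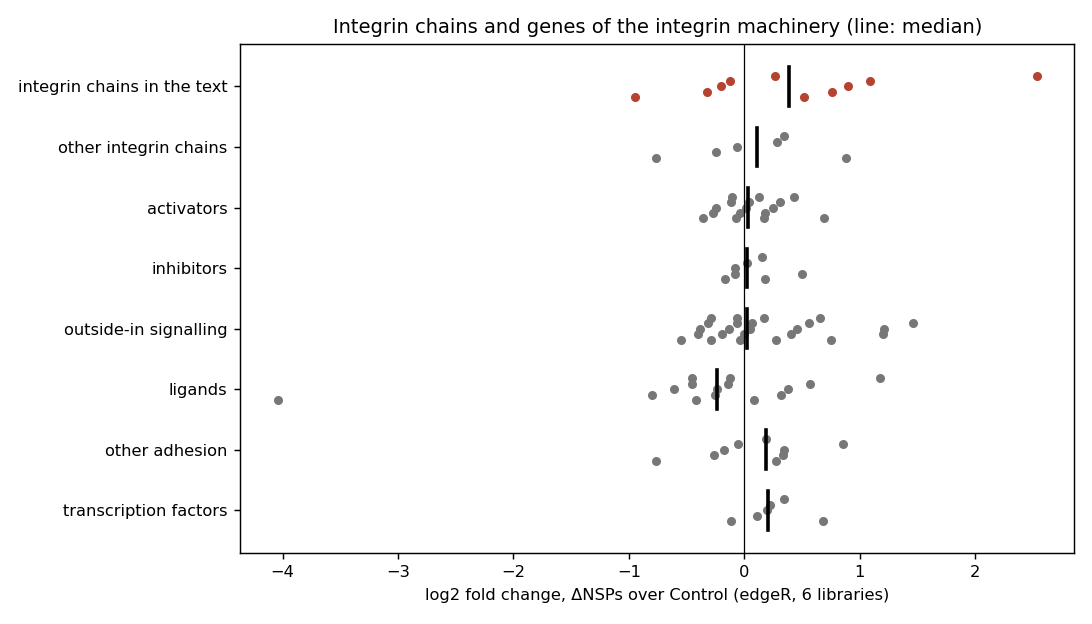
Points give the edgeR log2 fold change of ΔNSPs over Control (horizontal axis, 6 libraries) for each tested integrin chain described here (red) and for the genes of the 7 other lists (grey); black lines are medians, and vertical spread within a row has no meaning. The median is 0.39 for the integrin chains and between -0.24 and 0.21 for the other lists.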

How the data were processed

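Read counts of 6 U937 libraries were deposited by the authors as whole numbers per Ensembl gene, and were not normalized. Alignment tools named per the submitters' processing notes are HISAT2 2.0.0 and SAMtools 1.5.9, beside FastQC for read quality and, for counting, HTSeq 0.11.1; the genome build is GRCh38.p12. Neither the annotation release nor the strand setting nor any filter is given in the sources used here. In the table every gene had at least 10 counts over the libraries. Groups came from the sample titles. Replicates are the labels' separate lines and independent clones; same-numbered libraries did not deviate together.

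Symbols, positions and union exon lengths came from GENCODE 29 by identifier (18771 of 18798 matched). The table was fitted whole with edgeR 4.0.16 (R 4.3.3): TMM factors, filterByExpr, quasi-likelihood test, two-sided, Benjamini-Hochberg adjustment over 14797 genes at 0.05. SEs were derived from the fold change and the F statistic. CPM are TMM-scaled; for likeness, log2 CPM had a prior count of 2. DESeq2 1.42.0, limma 3.58.1 (voom), other size factors, no filter, a replicate block and leaving out each library were alternatives, and scripts were tested on simulated data. Partner ratios used exact permutation over the libraries.

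Members and gene lists were chosen with earlier results of these data known. The text names all members, the targets, up to 4 called genes and the most abundant gene per list. It also names the 3 genes nearest to ITGB2 and ITGB7. SPI1, GABPA, ICAM1, ICAM2, ICAM3, ICAM4, ICAM5, FN1, THBS1, ITGB5 and ITGAD were added after their values were seen. So were ZC3H15, COL5A2, WDR75, SLC40A1, single markers of cell types and overlapping genes.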

Additional observations from a re-analysis of the deposited data

How the results depend on the processing

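Under the alternatives, counts of passing genes moved with the tool and with single libraries. Of the 10 integrin genes, 0 passed in edgeR, 1 in DESeq2, and 0 to 3 when a library was left out, with 3 without clone 1. Over all genes 3 passed in edgeR, against 515 in DESeq2, 1 in limma voom and 0 to 928 with a library left out. Of the genes in the 7 lists 0 passed, against 7 in DESeq2 and 0 to 17 with a library left out. Causes of these moves were not tested. With a replicate block edgeR called 0 genes, 0 of the 10 among them. Same-numbered libraries had correlations of deviations of -0.43, -0.16 and -0.14, so the check gave no sign that the numbers pair the libraries. It cannot exclude pairing, since each deviation is taken from a mean of only 3 libraries. Of the block's exact tests of the 4 partner ratios, each gave p = 0.25, the smallest that 3 pairs allow. No integrin gene changed direction in any alternative, and 4 of its 120 alternative values gained a call. A tally was made over the integrin genes, the 3 targets and the genes named from the 7 lists by rule. In it 283 alternative values kept their side of the threshold, 23 gained a call, 4 lost one and 2 reversed. Other genes were refitted too but are not in this tally. The 4 lost calls were of CTSG, with the block and without clone 2, Control line 2 or Control line 3, at log2 fold changes of -4.72 to -4.49. FLNA changed sign with a library left out, from -0.12 to 0.10. The partner ratio differences kept their direction, from 0.21 to 0.45 for ITGB2 partners, -2.98 to -1.95 for ITGB7 partners, 0.095 to 0.19 for ITGB1 partners and 2.18 to 3.19 for ITGB7 over ITGB1 with a library left out; counts not divided by length moved no direction. Few counts limit the precision of ITGB7 (6 to 98), ITGAX (22 to 91) and ITGAV, which had 0 in clone 3 and the largest SE of the 10 genes in edgeR, 0.91.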
